A study of Danio rerio with 6 samples.

Results

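The genes described here are those of the Notch signalling pathway and the her, hes and hey genes, a family of transcriptional repressors of which many are switched on by Notch. They were chosen by symbol, as every row of the expression table whose name begins with that of a Notch receptor, a Delta or Jagged ligand, a Fringe, Deltex, Numb, Nrarp, RBPJ or Mastermind gene, or a her, hes or hey gene. This gave 58 of the 31387 gene rows. They comprise 9 ligand, 6 receptor, 3 Fringe, 5 nuclear complex, 10 modulator and 25 her, hes and hey rows. One row chosen through its symbol, NOTCH2 (2 of 2) (ENSDARG00000079519), is named eys in a current table of gene names. It is kept in the counts below but is not treated as a Notch receptor.

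RNA was sequenced from sorted cells of the adult zebrafish inner ear. Hair cells, the sensory cells that turn sound and head movement into nerve signals, were GFP-positive, and the surrounding cells were sorted as GFP-negative. There were 2 biological replicates of hair cells but only 1 sample of surrounding cells. Each was sequenced in 2 technical replicates, which were averaged. Both groups came from females aged 11 to 13 months of the strain Tg(pou4f3:GAP-GFP)s273t, in which the promoter of pou4f3, a transcription factor gene of hair cells, drives GFP. The library name of the surrounding cells also holds the letters WT, which the labels do not explain, so a difference in strain cannot be told apart from the difference in cells. The labels name no treatment. Each sample held 2000 cells pooled from the 3 otolith organs, the lagena, utricle and saccule, so that differences between these organs cannot be seen. The number of fish is not stated.

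Notch signalling passes between touching cells. A Delta or Jagged ligand on one cell binds a Notch receptor on its neighbour, the receptor is cut, and its freed inner part enters the nucleus and joins the DNA-binding protein RBPJ and the coactivator Mastermind to turn on target genes. Many of these targets encode her, hes and hey proteins, basic helix-loop-helix (bHLH) repressors that hold back the genes of a competing cell fate. In the developing ear, cells that become hair cells present Delta ligands and keep their neighbours from the same fate, and those neighbours become supporting cells. Fish go on adding hair cells as adults.

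The samples carried 31902175 and 102357841 mapped reads for the hair cell replicates and 34348634 for the surrounding cells. All 15 hair cell markers on a list of genes such as pou4f3, otofb and s100t were higher in hair cells, with a summed level of 11145 and 11776 RPKM (a read count corrected for gene length and for the depth of the library) against 14.8 in surrounding cells. Markers of supporting cells, the cells that lie between hair cells, were also mostly higher in the GFP-positive samples. Of 15 tested, 10 rose and 3 fell (krt15, fgfr3 and cx43), krt15 with 1.93 and 2.69 RPKM in hair cells against 133 in surrounding cells. The sum of the listed markers was 5104 and 6973 RPKM against 1536. Much of it came from single genes. The gene glula held 2520 and 3953 RPKM in hair cells against 150, and cldnb, which was not called, held 374 and 536 against 1193. The tectorial membrane gene tectb, for example, was at 505 and 554 RPKM in hair cells and at 3.03 in surrounding cells, whereas the supporting cell gene sox2 was near 0 in all samples (0.0152, 0 and 0 RPKM). Markers of epithelium and keratin (11 of 12 tested), endothelium (10 of 12), fibroblasts (9 of 10) and leukocytes (6 of 8) were lower in hair cells. The leukocyte marker lyz was called higher, at 31.4 and 22.2 RPKM in hair cells against 0.722 in surrounding cells. Of the mural cell markers 3 of 4 tested were lower and 1 higher, of the neuron markers 3 of 7 were higher and 1 lower, of the Schwann cell and glia markers 3 of 6 were lower, and of 4 red blood cell markers none was called (with 0 at an unadjusted limma p under 0.05). The surrounding cells were thus low in hair cell markers and in most supporting cell markers, and this touches every comparison below. The part of supporting cell RNA in the differences of the Notch genes was not tested. In bulk samples, fewer cells of a type and less RNA per cell cannot be told apart.

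The Notch and her genes were, on balance, higher in hair cells. A gene was tested where at least 1 sample reached 1 RPKM, which 42 of the 58 members did, and was called at a limma adjusted p under 0.05 with a difference of at least 1 on the log2(RPKM + 1) scale. Of the 42, 23 passed as higher in hair cells and 2 as lower. The 23 count the copies of her4 and of her15 as separate rows, and with these copies summed 20 passed as higher and 2 as lower. Over all 15803 genes tested, 2799 (17.7%) were called higher and 2851 (18.0%) lower. The median difference of the tested members was 1.36, and that of all genes tested was 0.15. Both the counts and the medians depend on the filter. Most of the 23 members called higher, among them her4.2_1 and dld, passed it only through hair cells. Without it 14 members were called higher and 1 lower, against 1464 and 1740 of 26520 genes. With no filter the medians were 0.24 and -0.05, and with a filter of 5 RPKM they were 2.63 and 0.43. Of the calls over all genes 49.5% were in the direction of hair cells, which moved to 61.3% with a filter of 5 RPKM and to 37.2% when whole reads recovered from the RPKM steps were fitted with precision weights. The same 25 members passed a rule of size with no test, which asks for 1 RPKM on average in the higher group and for 2-fold on the log2(RPKM + 1) scale in each hair cell replicate. It uses the same values and the same cut of size as the calls, so it is no independent check of them. That rule took 18.6% of all genes tested as higher and 18.0% as lower.

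The hair cell replicates were close to each other for these genes. The median gap between them was 0.19 on the log2(RPKM + 1) scale over the 42 members, against 0.26 over all genes tested, and no member reached a gap of 1. The widest gaps on that scale were those of notch3, hes6 and her9, at 0.75, 0.74 and 0.73. The scale narrows gaps between low values. By plain ratio the replicates differed most for notch3 (2.11-fold), notch2 (1.97-fold) and rfng (1.86-fold). The surrounding cells had no biological replicate, so the test takes their spread to be that of the hair cells. A permutation of these 3 samples has a smallest possible exact p of 0.333. Replicate 1 of the hair cells and the surrounding cells share a stem in their library names that replicate 2 lacks, and what it stands for is not stated. The median difference of the tested members was 1.29 against replicate 1 alone and 1.29 against replicate 2 alone.

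**Figure D1:**
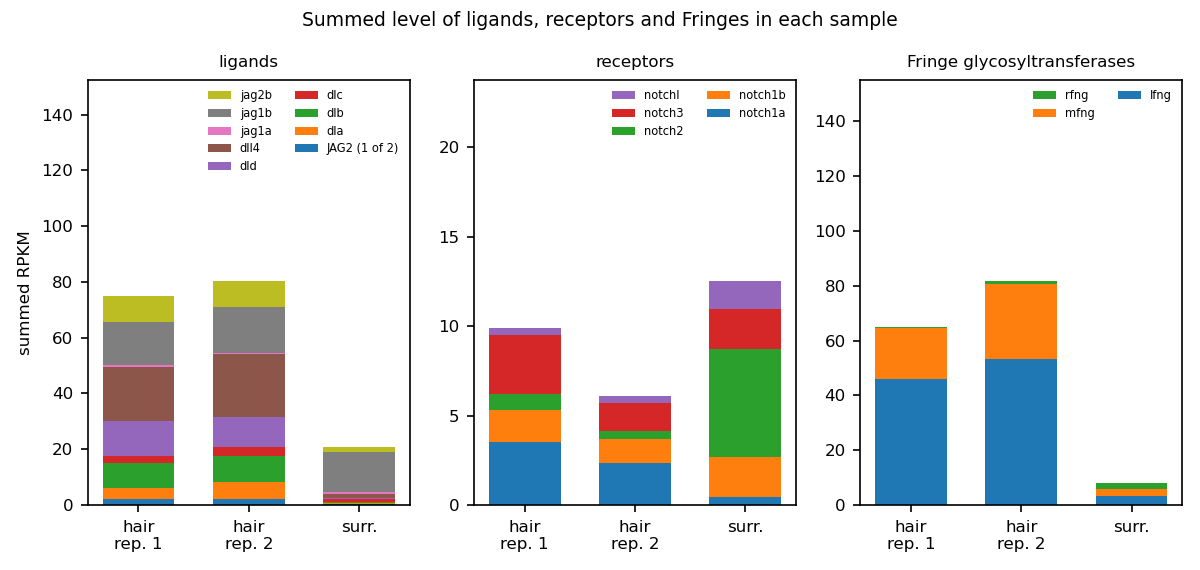
Summed RPKM (vertical axes, with a different scale in each panel) of the Notch ligands, receptors and Fringe genes in hair cell replicates 1 and 2 and in the 1 surrounding cell sample, stacked by gene. The row named eys is left out. The ligand sum was 75.0 and 80.2 RPKM in hair cells and 21.0 in surrounding cells, of which most was jag1b, while the receptor sum was 9.87 and 6.07 against 12.5.

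Most Notch ligands were higher in hair cells. Of 8 tested, 6 were called higher and none lower, dlc and jag1b were not called, and jag1a was too low to be tested. Of the 6, dla, dlb, dld and JAG2 (1 of 2) were under 1 RPKM in surrounding cells. They entered the test only through hair cells, so the filter all but fixed their direction. Over all genes tested 17.7% were called higher and 18.0% lower. The 9 ligand rows together summed to 75.0 and 80.2 RPKM in hair cells and 21.0 in surrounding cells. The most abundant in hair cells was dll4, a Delta ligand best known from the sprouting of blood vessels. Its levels were 19.4 and 22.6 RPKM in hair cells against 1.69 in surrounding cells. Both replicates lay far above the surrounding cells, a 12.4-fold difference of means and 3.03±0.24 (standard error) on the log2(RPKM + 1) scale (adjusted p = 0.0078). Of the 12 endothelial markers tested 10 were lower in hair cells and none was called higher, with a sum of 2.85 and 2.91 RPKM in hair cells and 41.2 in surrounding cells, although tek, at 0.579, 1.13 and 0.344 RPKM, was not lower. The part of endothelial cells in the level of dll4 was not tested.

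The 3 Delta genes dla, dlb and dld, homologs of the mammalian Delta-like ligands, showed the same direction. The gene dld had 12.4 and 10.8 RPKM in hair cells and 0.305 in surrounding cells, from 1325 and 3703 reads against 35. This was the widest gap among the ligands, 38.2-fold by the means and 3.27±0.27 on the log2 scale (adjusted p = 0.0078). The values of dlb were 8.74, 9.30 and 0.442 RPKM, a difference of 2.80±0.26 (adjusted p = 0.0089). For dla they were 4.03, 6.0 and 0.285 RPKM, a difference of 2.21±0.35 (adjusted p = 0.021). In all 3 the hair cell replicates were at least 4 RPKM and the surrounding cells under 0.5.

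The fourth Delta gene, dlc, known in zebrafish from the segmentation of the body axis, was not called. It had 2.75 and 3.10 RPKM in hair cells and 1.08 in surrounding cells, a difference of 0.92±0.26 (adjusted p = 0.071). Its replicates also lay above the surrounding cells, but by less than the threshold of 1.

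The Jagged ligands, the other ligand family, split by gene. The level of jag1b was 15.2 and 16.6 RPKM in hair cells and 14.4 in surrounding cells, a difference of 0.13±0.22 (adjusted p = 0.66). Of all ligands it was the second most abundant in both hair cell replicates and the first in surrounding cells, where it made up 68.9% of the ligand sum against 20.3% and 20.7% in hair cells. Its paralog jag1a stayed under 1 RPKM in all samples and was not tested. The gene jag2b had 9.35 and 9.05 RPKM in hair cells and 1.93 in surrounding cells, a difference of 1.80±0.25 (adjusted p = 0.016). The row JAG2 (1 of 2), named jag2a in the current table, was lower throughout, at 2.19, 2.26 and 0.280 RPKM, and was also called higher (1.33±0.21, adjusted p = 0.022). The calls of dla and JAG2 (1 of 2) were lost under some other settings, among them a pseudocount of 5 RPKM. The other 4 held under all 7 other fits of the single rows.

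The receptors were low in every sample and did not move as a group. Among the 5 named Notch receptors, 1 was called higher, 1 lower and 3 were not called. The shares of 17.7% and 18.0% over all genes would give numbers near these. The receptor sum was 9.87 and 6.07 RPKM in hair cells and 12.5 in surrounding cells. In hair cells the most abundant was notch1a, the homolog of mammalian NOTCH1 that is widely expressed in the nervous system of the embryo. Its level was 3.51 and 2.33 RPKM against 0.443, a difference of 1.43±0.31 (adjusted p = 0.042). In surrounding cells the most abundant was notch2, at 6.03 RPKM against 0.862 and 0.438 in hair cells. This receptor was 9.28-fold higher in surrounding cells by the means, a difference of -2.10±0.29 on the log2 scale (adjusted p = 0.017).

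The shares within the receptor sum followed these differences. Notch1a gave 35.5% and 38.5% of the receptor sum in the hair cell replicates and 3.54% in surrounding cells, and notch2 gave 8.74% and 7.22% against 48.3%. The ratio of notch1a to notch2 was 4.07 and 5.32 in hair cells and 0.0734 in surrounding cells. The fall of notch2 went with that of most fibroblast, keratin, endothelial and leukocyte markers, and their part in it was not tested.

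The other receptors gave no call in the main fit. For notch1b the levels were 1.81, 1.36 and 2.24 RPKM, a difference of -0.33±0.27 (adjusted p = 0.38). For notch3, known for its role in the muscle cells around vessels, they were 3.31, 1.57 and 2.25 RPKM (0.03±0.43, adjusted p = 0.96), so that the surrounding cells lay between the hair cell replicates. The row notchl had 0.373, 0.366 and 1.53 RPKM and passed the p threshold (adjusted p = 0.023) but not that of size (-0.88±0.14). By the means notchl was 4.13-fold higher in surrounding cells, and the fit of recovered reads called it lower (-2.30). The call of notch1a was lost with a pseudocount or a filter of 5 RPKM (which drops it from the test) and where low values were not filtered, and that of notch2 with that pseudocount and without the filter.

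The row NOTCH2 (2 of 2), which the current table names eys after a gene of photoreceptor maintenance, had 4.30 and 3.68 RPKM in hair cells and 0.125 in surrounding cells. The surrounding value rests on 3 reads, so the 32.1-fold ratio has a counting interval of 11.0 to 155. It was called higher (2.15±0.26, adjusted p = 0.013), a call that was lost with a pseudocount or a filter of 5 RPKM and in the fit of recovered reads (adjusted p = 0.21, with a range of 0.012 to 0.21 over the other fits that tested it). Without this row the members called higher number 22 of 41.

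The Fringe genes encode Golgi enzymes that add a sugar to Notch and so change which ligand it answers to. Of the 3, lfng and mfng were called higher in hair cells and rfng was not called, where the shares over all genes tested were 17.7% higher and 18.0% lower. The level of lfng was 46.1 and 53.1 RPKM in hair cells and 3.18 in surrounding cells, a 15.6-fold gap of the means and 3.6±0.22 on the log2 scale (adjusted p = 0.0072). It was the most abundant member outside the her and hey genes. For mfng the levels were 18.3, 27.6 and 2.65 RPKM, a difference of 2.69±0.34 (adjusted p = 0.014). The call of mfng was lost without the filter on low values, and that of lfng held under all 7 other fits.

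The third Fringe gene, rfng, lay the other way, at 0.502 and 0.933 RPKM in hair cells and 2.22 in surrounding cells. The difference of -0.92±0.25 missed both thresholds (adjusted p = 0.066), and it was called lower in the fit of recovered reads (adjusted p = 0.020, with a range of 0.020 to 0.15 over the other fits). The ratio of lfng to rfng was 91.9 and 57.0 in hair cells and 1.43 in surrounding cells.

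The nuclear complex that carries the signal to DNA gave no call. None of its 4 tested members was called (0 at an unadjusted limma p under 0.05, and 0 called in the fit of recovered reads). Of all 15803 genes tested, 8033 had an unadjusted limma p under 0.05, and 17.7% were called higher and 18.0% lower. The DNA-binding genes rbpja and rbpjb and the coactivator genes maml1 and maml3 differed by -0.34 to 0.42 on the log2 scale. Their sum, with rbpjl, was 13.0 and 13.7 RPKM in hair cells and 13.3 in surrounding cells. The fifth row, rbpjl, a paralog that in mammals serves the exocrine pancreas, had 0 reads in all samples.

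The modulators were mixed. Of 9 tested, 2 were called higher, 1 lower and 6 not called. These numbers were near those that the shares of 17.7% and 18.0% over all genes would give. The gene nrarpa, a target of Notch that feeds back to limit it, had 5.71 and 5.49 RPKM in hair cells and 1.78 in surrounding cells (1.25±0.26, adjusted p = 0.039). Its paralog nrarpb, at 1.74, 2.39 and 2.21 RPKM, was not called (-0.08±0.29, adjusted p = 0.85).

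The Deltex genes encode E3 ubiquitin ligases. The row DTX3 had 9.88 and 13.8 RPKM in hair cells and 1.12 in surrounding cells, a difference of 2.58±0.32 (adjusted p = 0.014). In contrast DTX3L (1 of 2), named dtx3lb.2 in the current table, had 0.337 and 0.416 RPKM against 3.06 and was called lower (-1.56±0.18, adjusted p = 0.012). DTX3L proteins are best known, in human cells, from DNA repair and the interferon response. The second DTX3L row, dtx1, dtx2, dtx4 and numb, which encodes an inhibitor of Notch, were not called, with differences of -0.98 to 0.85. The current table names the row dtx1 DTX4 and the row dtx4 dtx4b. Of the 3 calls, that of nrarpa was lost with a pseudocount of 5 RPKM and without the filter, that of DTX3 without the filter, and that of DTX3L (1 of 2) with a pseudocount or a filter of 5 RPKM.

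**Figure D2:**
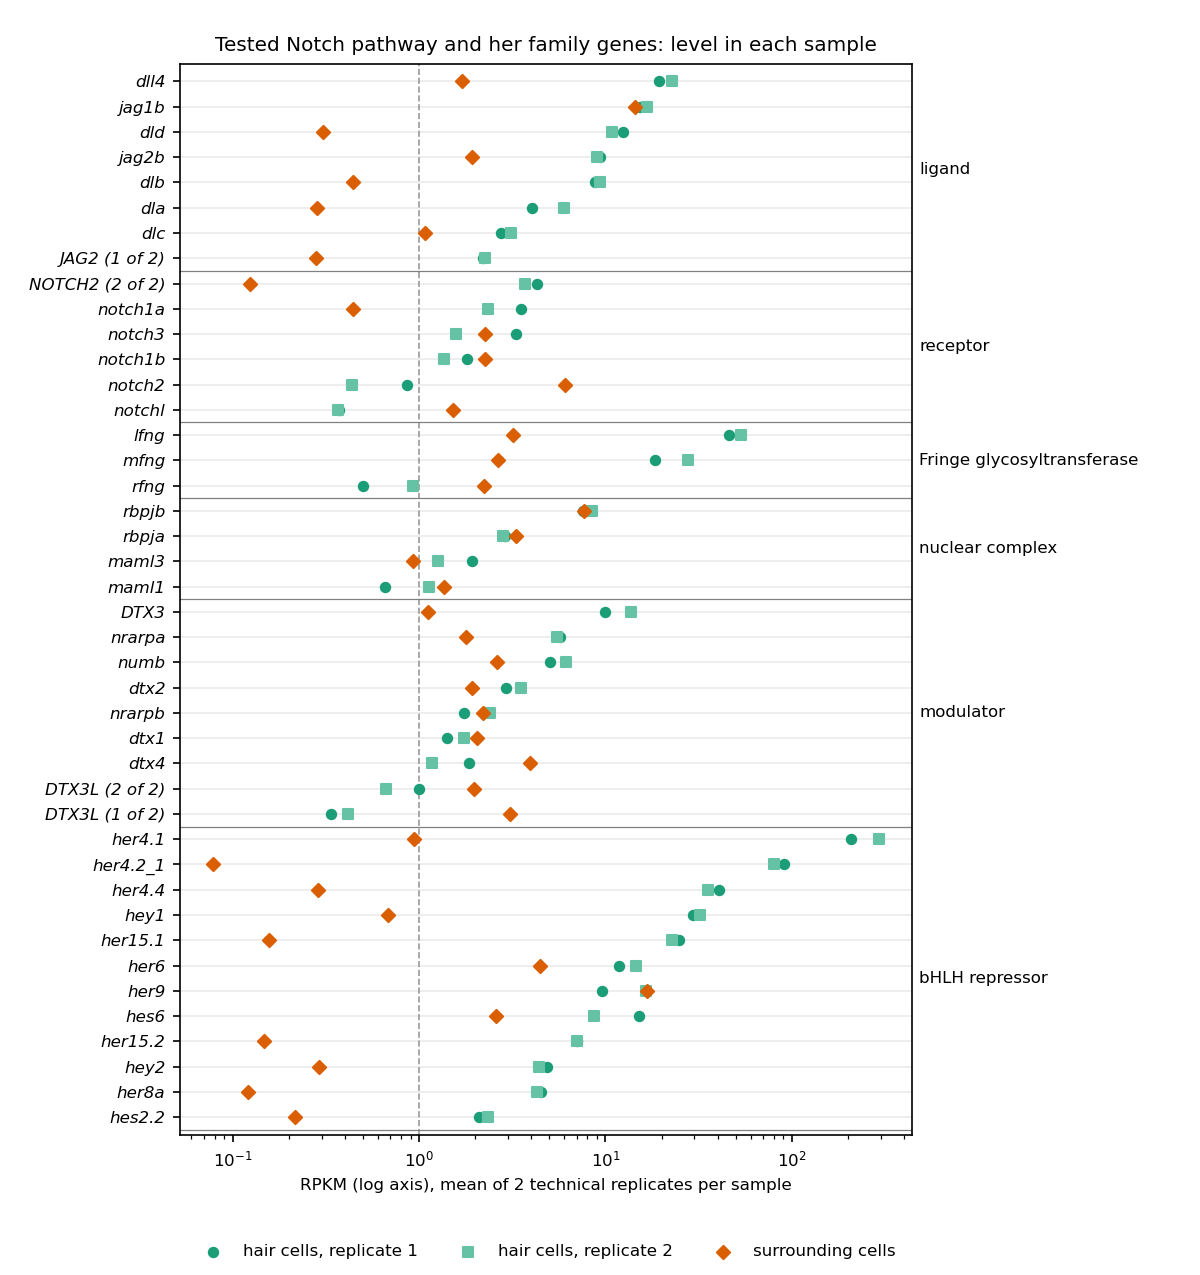
RPKM of the 42 tested members (horizontal log axis; dashed line at 1 RPKM) in hair cell replicate 1 (circles), hair cell replicate 2 (squares) and the surrounding cell sample (diamonds), grouped by role. The tested her4 copies and her15.1 had the widest gaps between hair and surrounding cells, her4.2_1 with 90.6 and 80.5 RPKM against 0.0786. For jag1b, rbpjb and her9 the surrounding cells lay near or among the hair cell replicates.

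The her, hes and hey genes held the strongest differences. Of 25 rows 12 were tested, of which 11 were called higher in hair cells and none lower. The 11 count copies of her4 and of her15 as separate rows. All of them but her6 and hes6 were under 1 RPKM in surrounding cells and entered the test only through hair cells. For those rows the filter all but fixed the direction, so the count is no test of it. Over all genes tested 17.7% were called higher and 18.0% lower. All 25 together summed to 448 and 522 RPKM in hair cells and 28.3 in surrounding cells. The gene her4.1, a direct Notch target in the zebrafish nervous system and a homolog of mammalian HES5, led with 207 and 292 RPKM in hair cells and 0.936 in surrounding cells. It ranked 197 and 145 by level among all 31387 genes in the hair cell replicates and 13408 in surrounding cells. The difference was 7.0±0.30 (adjusted p = 0.0072), the 36th highest of the 15803 genes tested.

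The her4 genes are near-identical copies, and the values of single copies are uncertain for that reason. In the RefSeq annotation of assembly GRCz12tu, a later build than that of the table, her4.2, her4.1, her4.3, her4.4 and her4.5 follow each other on chromosome 23 behind her12 with no other protein-coding gene in between, and the models of her4.2 and her4.1 overlap. The sources used here do not say how reads that match several copies were counted. The 5 rows were her4.1, her4.2_1 (named her4.2 in the current table), her4.2_2 (named her4.5), her4.3 and her4.4.

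Only 3 of the 5 carried most of the reads. The row her4.2_1 had 90.6 and 80.5 RPKM in hair cells and 0.0786 in surrounding cells, from 6412 and 18266 reads against 6 (6.32±0.22, adjusted p = 0.0072). The row her4.4 had 40.5 and 35.4 RPKM against 0.288 (4.92±0.24, adjusted p = 0.0072). The remaining copies, her4.3 and her4.2_2, were at 0.0524 to 0.236 RPKM in hair cells and were not tested. With so few reads in surrounding cells the ratios have wide counting intervals, 1088-fold for her4.2_1 (95% interval 499.9 to 2965), 267-fold for her4.1 (188 to 393) and 132-fold for her4.4 (83.4 to 223). These intervals cover the counting error of the surrounding cell reads only.

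If each read was counted once, the summed reads of the copies do not depend on how reads were shared among them. Reads left out for matching several copies would still be missing, and reads counted in several rows would raise the sum. The 5 her4 rows held 15124 and 53722 reads in hair cells and 56 in surrounding cells. Their summed RPKM, which still moves with the split because the rows differ in length, was 338 and 409 in hair cells and 1.32 in surrounding cells. The difference of that sum was 7.33±0.23 (adjusted p = 0.0071). The share of her4.1 in that sum was 61.1% and 71.6% in the hair cell replicates and 70.9% in surrounding cells, and that of her4.2_1 was 26.8% and 19.7% against 5.96%. The last of these rests on 6 reads.

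**Figure D3:**
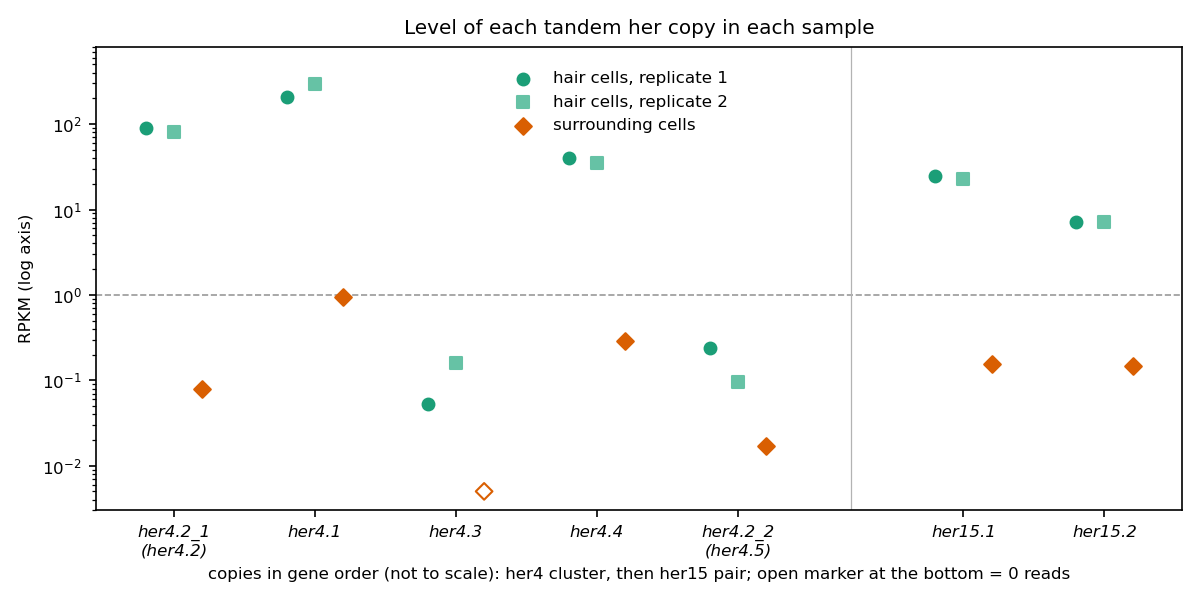
RPKM (vertical log axis; dashed line at 1 RPKM) of the 5 her4 copies and the 2 her15 copies, placed in gene order, in hair cell replicates 1 and 2 (circles and squares) and the surrounding cell sample (diamonds; the open one stands for 0 reads). In hair cells her4.1, her4.2_1 and her4.4 lay between 35.4 and 292 RPKM while her4.3 and her4.2_2 stayed under 0.25, and every copy was under 1 RPKM in surrounding cells.

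The her15 pair showed the same direction. These genes, also HES5-like, lie side by side on chromosome 11 next to her2. The row her15.1 had 24.7 and 22.7 RPKM in hair cells and 0.157 in surrounding cells (4.42±0.24, adjusted p = 0.0072), and her15.2 had 7.07 and 7.07 RPKM against 0.147 (2.82±0.27, adjusted p = 0.0089). Together they had 31.8 and 29.8 RPKM against 0.304, from 1191 and 3596 reads against 13, a difference of 4.61±0.23 (adjusted p = 0.0071). Their neighbour her2, in contrast, had 0.122 and 0.265 RPKM in hair cells and 0.490 in surrounding cells and was not tested.

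The gene hey1 belongs to the hey branch of the family, known from heart and vessel development. It had 29.5 and 32.2 RPKM in hair cells and 0.684 in surrounding cells, 45.1-fold by the means (4.24±0.23, adjusted p = 0.0072). Its relative hey2 had 4.87, 4.42 and 0.289 RPKM (2.13±0.27, adjusted p = 0.014). The third gene of this branch, heyl, had 2, 0 and 3 reads.

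The smaller calls in this family were her8a, her6, hes6 and hes2.2. For her8a the levels were 4.48, 4.29 and 0.121 RPKM (2.26±0.26, adjusted p = 0.012). For her6, the homolog of mammalian HES1, they were 11.8, 14.6 and 4.43 RPKM (1.38±0.26, adjusted p = 0.031), so that it was also well present in surrounding cells. For hes6, whose mouse homolog counteracts other Hes proteins, they were 15.2, 8.66 and 2.59 RPKM (1.80±0.42, adjusted p = 0.047). Here the replicates differed from each other by 1.75-fold, and the call was close to the threshold. The lowest was hes2.2, with 2.10, 2.34 and 0.215 RPKM (1.40±0.21, adjusted p = 0.020).

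The gene her9, the homolog of human HES4, was the only one of the 12 that was not called. It had 9.52 and 16.5 RPKM in hair cells and 16.8 in surrounding cells, a difference of -0.39±0.40 (adjusted p = 0.49). The replicates differed by 1.73-fold and the second lay next to the surrounding cells. In surrounding cells her9 made up 59.3% of the summed her, hes and hey level, ahead of her6 with 15.7% and hes6 with 9.15%. In the hair cell replicates the 5 her4 rows made up 75.4% and 78.3%, and her9 2.12% and 3.16%. The ratio of her4.1 to her9 was 21.7 and 17.7 in hair cells and 0.0558 in surrounding cells.

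**Figure D4:**
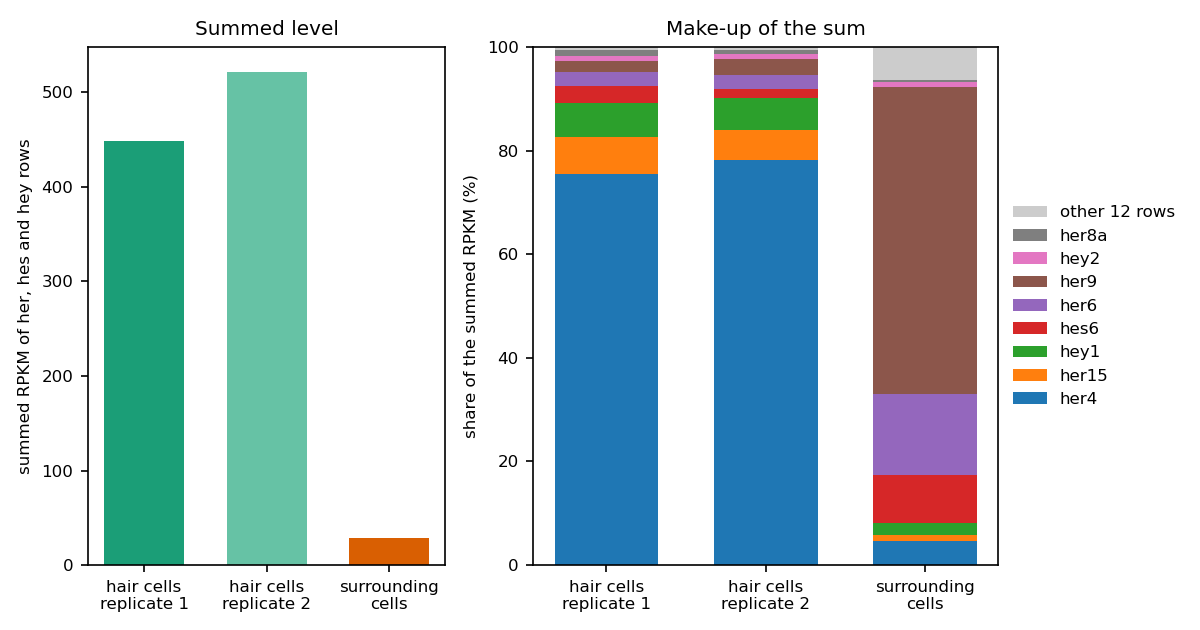
Left, summed RPKM of the 25 her, hes and hey rows in hair cell replicates 1 and 2 and in the surrounding cell sample. Right, the share of each gene in that sum (%), with the 5 her4 rows and the 2 her15 rows each shown as 1 block. The her4 rows made up 75.4% and 78.3% of the sum in hair cells and 4.67% in surrounding cells, where her9 made up 59.3%.

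Of the 11 calls, those of her4.1, her4.2_1, her4.4, her15.1 and hey1 held under all 7 other fits of the single rows. The call of her15.2 was lost in the fit of recovered reads, those of her8a and hey2 with a pseudocount or a filter of 5 RPKM (hey2 with recovered reads as well), and those of her6, hes6 and hes2.2 with a pseudocount of 5 RPKM and without the filter. In addition hes6 lost its call without the variance trend, and hes2.2 with a filter of 5 RPKM and with recovered reads.

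The 13 her, hes and hey rows that were not tested stayed under 0.5 RPKM in every sample. They include the genes best known from the segmentation of the zebrafish embryo, her1, her7, her11 and her12, and her5, known from the boundary of midbrain and hindbrain. For her5, her7 and her11 there were 0 reads in both hair cell replicates and 5, 7 and 11 reads in surrounding cells. A count of 0 has a 95% counting interval that reaches an expected 3.69 reads. In the opposite pattern her8.2 had 6 and 28 reads in hair cells and 0 in surrounding cells. Her3 had 0 reads in all samples. These counts were left untested, and with 1 surrounding cell sample their differences have no replicate check.

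**Figure D5:**
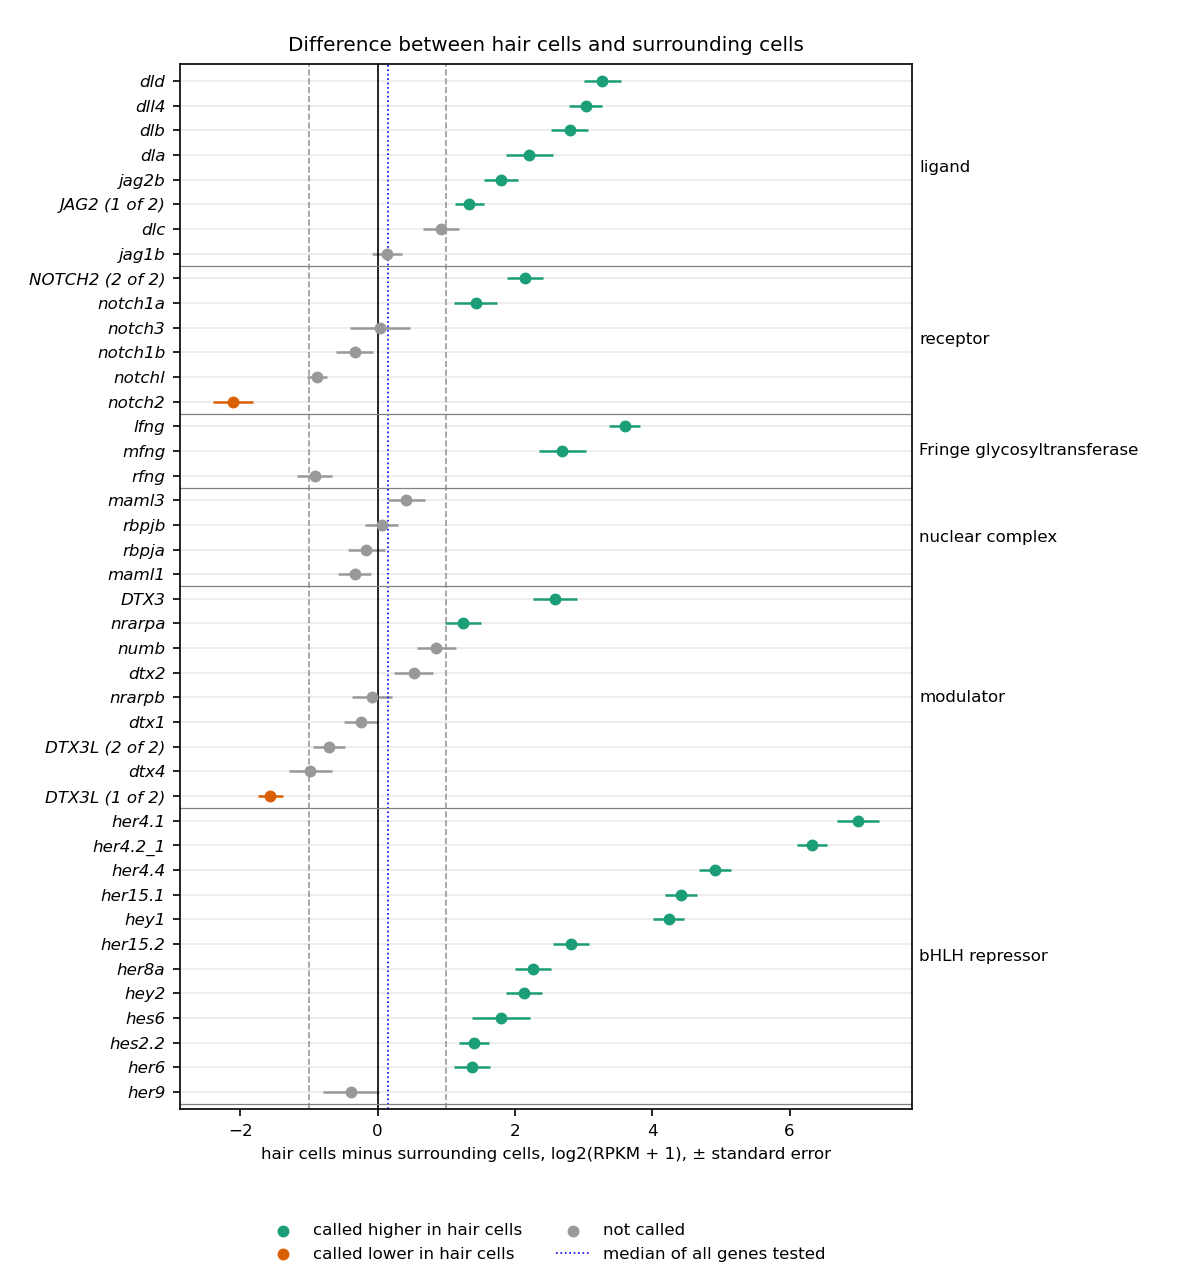
Difference between hair cells and surrounding cells on the log2(RPKM + 1) scale (points, with bars for ± 1 standard error) for the 42 tested members, grouped by role. Dashed lines mark a difference of 1 in either direction and the dotted line the median of all genes tested, 0.15. Called members are coloured (23 higher and 2 lower), and the her4 copies, her15.1, hey1 and lfng reach the highest values.

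Other genes of the pathway, which the choice by symbol leaves out, were close to the background or under it. From a list of 73 such genes 67 rows were found and 50 tested, of which 6 were called higher and 8 lower, with a median difference of -0.01. The shares over all genes tested were 17.7% higher and 18.0% lower. Of the 9 genes of receptor cleavage that were tested, 1 was called. This was aph1b, of the gamma-secretase complex, with 14.7 and 20.9 RPKM in hair cells and 5.69 in surrounding cells (1.47±0.31, adjusted p = 0.039).

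Of the 15 tested genes of ligand and receptor modification and traffic, 4 were called higher and 3 lower, numbers near those that the shares of 17.7% and 18.0% over all genes would give. The endocytosis genes aak1a and ap2a1 and the ubiquitin ligase genes itcha and neurl1aa were higher in hair cells, the last at 13.6 and 14.1 RPKM against 5.18. The related ligase genes neurl1ab and neurl1b and the endocytic adaptor gene epn2 were lower, epn2 at 5.56 and 5.06 RPKM against 15.1. The ubiquitin ligase gene mib1, required for Delta endocytosis in zebrafish, had 4.27, 4.80 and 4.57 RPKM and was not called (adjusted p = 0.98).

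Of 18 corepressor and coactivator genes tested none was higher and 2 were lower, the rows CTBP1 and aes. Over all genes the shares were 17.7% higher and 18.0% lower. Of 4 tested genes on a list of proneural bHLH genes and their relatives, none was higher and 2 were lower. These were atoh8, with 2.19 and 1.61 RPKM against 15.8, and ascl1b_1, a row that the current table names si:ch211-210p4.6 and no longer ascl1b. Repression of these genes by her proteins was not tested. The hair cell determination gene atoh1a was at 0.193 and 0.0600 RPKM in hair cells with 0 reads in surrounding cells and was not tested. Among noncanonical ligands cntn1b was higher and egfl7, also an endothelial marker, was lower, each 1 of 2 tested.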

How the data were processed

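RNA was extracted with a Qiagen miRNeasy kit and amplified with Clontech SMART-Seq. The authors deposited 1 table of RPKM values, scaled to mapped reads and gene length, with 1 column per technical replicate. The build, per the submitters' processing notes, was GRCz10. The sources used here do not name the aligner, read counter or annotation release, nor say whether strand was used. The authors' 4 columns of averages and standard deviations were left out, and 1 duplicated row was removed. Technical replicates were averaged. Their reads differed in a two-sided exact binomial test at p under 0.05 for 3, 0 and 1 of the 42 tested members in the 3 samples.

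Each RPKM was a whole multiple of the value of 1 read, which gave mapped totals and whole reads (within 0.001) for 100% of values above 0. Each gene was given the smallest length that makes its reads whole. Its reads are thus the smallest that fit, known up to a factor shared with the length. Reads were not collapsed to molecules, so intervals cover counting error only.

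Genes with at least 1 RPKM in at least 1 sample were tested with limma 3.58.1 (R 4.3.3) on log2(RPKM + 1), a scale that understates changes of low genes, with a variance trend, and p-values were adjusted by Benjamini-Hochberg over all 15803. The fit had 1 residual degree of freedom. Sample values are given for members called, those with 10 RPKM in any sample, and tested receptors and ligands. Other settings tried were a pseudocount of 0.1 or 5, no filter, a filter of 5 RPKM, median-ratio scaling, no trend, limma with precision weights on recovered reads, summed her copies, and each hair cell replicate alone. The members and gene lists were chosen with earlier results of these data known. All 58 members matched the current gene name table and 55 the RefSeq table by symbol and chromosome. Promoters and protein sequences were not analysed here.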

Additional observations from a re-analysis of the deposited data

How the results depend on the processing

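The surrounding cells were 1 sample, so no setting tests their spread, and low levels there rest on few reads. No paired analysis was possible because the groups share only replicate number 1. Main counts were 23 members higher and 2 lower, 2799 and 2851 of all genes, and 6 and 8 other pathway genes. Of the 23 members called higher, 10 kept their call in all 7 other fits of single rows, and neither of the 2 called lower did. With a pseudocount of 5 RPKM these counts were 13 and 0, 1603 and 1225, and 0 and 2, and the rule of size gave 13 and 0. With a pseudocount of 0.1 RPKM the rule of size gave 5 members lower. With no filter 14 members were higher and 1 lower, against 1464 and 1740 of all genes, and 3 other pathway genes were higher. With a filter of 5 RPKM 1 member was lower by the test and 1 by the rule of size, with 1713 of all genes and 4 other pathway genes lower. In the fit of recovered reads 18 members, all of them among the 23, were higher and 6 lower. The 6 were rfng, notchl, dtx4 and DTX3L (2 of 2) beside the main 2. Over all 15803 genes tested, that fit called 2179 higher and 3672 lower. There jag1b (-0.086, adjusted p = 0.82), notch3 (-0.37, adjusted p = 0.56) and rbpjb (-0.15, adjusted p = 0.75), none of them called in either fit, changed sign. The causes of these shifts were not tested. The median difference of the members, 1.36 in the main fit, was 1.85 and 0.50 with pseudocounts of 0.1 and 5 RPKM, 0.24 with no filter, 2.63 with a filter of 5 RPKM, 1.33 with median-ratio scaling, 1.60 with recovered reads, 1.25 with summed copies, and 1.29 with either hair cell replicate alone. The comparisons of promoter motifs and of the proteins of the her copies were not run.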
